A study of Rattus norvegicus with 9 samples.

Results

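The ceramide pathway was followed through 10 of its genes in INS-1E cells, a rat insulinoma line that secretes insulin. The genes were chosen by name for their place in the pathway, with earlier results of these data known: Sptlc1, Sptlc2, Kdsr, Cers2, Cers4, Cers5, Cers6, Degs1, Ugcg and Sgpl1. Of these 10, 9 were found among the 20645 genes of the expression table, and all 9 were among the 12958 genes with a mean of at least 1 FPKM (a fragment count scaled to transcript length and library size), which were tested. Cers4 was not analysed here. The 9 libraries came from 3 groups of 3, given fatty-acid-free BSA (the BSA group), palmitic acid (the PA group), or palmitic acid with cyanidin-3-O-glucoside, an anthocyanin (the PA + C3G group), each for 24 h. All groups are 1 tumour-derived line and not islet cells. The sample titles read control, palmitic acid treated and cyanidin-3-O-glucoside treated. That the control received BSA and that C3G was given together with PA is taken from the study's methods. The labels give no dose, and by the study's methods PA was used at 0.5 mM and C3G at 50 µM. PA versus BSA gives the change with the fatty acid, PA + C3G versus PA the change with C3G in its presence, and PA + C3G versus BSA the distance left to the control. The 3 comparisons share libraries and are not independent of each other.

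Ceramide is built from palmitoyl-CoA, the activated form of palmitic acid, and is the central molecule of sphingolipid metabolism. Serine palmitoyltransferase, a complex that holds the Sptlc1 and Sptlc2 proteins, condenses serine with palmitoyl-CoA, and Kdsr reduces the product to sphinganine. Ceramide synthases then add an acyl chain, Cers2 preferring very long chains and Cers5 and Cers6 preferring palmitoyl-CoA, and the desaturase Degs1 turns the resulting dihydroceramide into ceramide. Ugcg attaches glucose to ceramide, the entry into glycosphingolipids, whereas Sgpl1 cleaves sphingosine 1-phosphate, the irreversible exit from the pathway. In beta cells, ceramide is one of the lipids studied in the toxicity of saturated fatty acids.

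The libraries held between 45559993 and 66730721 estimated counts. Libraries of the same group correlated at r of 0.963 to 0.972 across genes, which are not independent replicates, and libraries of different groups at 0.935 to 0.963. All 10 beta cell markers, among them Ins1, Ins2, Pdx1 and Nkx6-1, were at 6.16 FPKM or more in every library. Their summed FPKM lay between 44816 and 45509 in the BSA group, between 18608 and 19196 in the PA group and between 41504 and 47268 in the PA + C3G group. Ins1 and Ins2 make up most of that sum, and single markers moved differently. Ins2 had means of 13778, 1871 and 7008 FPKM and Slc2a2 of 510, 103 and 172 FPKM in the BSA, PA and PA + C3G groups, whereas Ucn3 had 51.9, 130 and 196 FPKM. Slc2a2 and Ucn3 were picked after their values were seen, as was Ormdl3, a regulator described further on. Of 21 markers of other pancreatic cell types, 13 were measured and 11 of these had a mean below 1 FPKM. The 2 others were Gcg, at 1.35 to 31.2 FPKM, and Sox9, at 2.52 to 5.86 FPKM, and both moved with PA. The part of the beta cell markers, of Gcg and of Sox9 in the results on the ceramide genes was not tested. In these bulk libraries, fewer cells of a type and less RNA per cell cannot be told apart.

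The 4 promoters printed here belong to the genes that rose with PA (Sptlc1, Kdsr and Cers2) and to Sptlc2, the partner of Sptlc1 in the same enzyme, which did not pass the test. Each is the 250 bases before the annotated start in RefSeq on the GRCr8 build, written 5′ to 3′ on the strand of the gene. These intervals are chr17:12028939-12029188 on the plus strand for Sptlc1, chr6:112762471-112762720 on the minus strand for Sptlc2, chr13:23408766-23409015 on the minus strand for Kdsr and chr2:185579261-185579510 on the plus strand for Cers2. Capitals mark matches, on either strand, to the GC box GGGCGG, the CCAAT box CCAAT, the E-box palindrome CACGTG or the amino acid response element TGATGCAA.
Sptlc1: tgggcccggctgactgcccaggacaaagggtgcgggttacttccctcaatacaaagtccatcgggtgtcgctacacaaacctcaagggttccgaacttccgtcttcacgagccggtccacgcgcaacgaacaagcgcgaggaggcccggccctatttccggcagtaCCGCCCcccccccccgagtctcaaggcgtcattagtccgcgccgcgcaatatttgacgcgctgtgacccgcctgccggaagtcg
Sptlc2: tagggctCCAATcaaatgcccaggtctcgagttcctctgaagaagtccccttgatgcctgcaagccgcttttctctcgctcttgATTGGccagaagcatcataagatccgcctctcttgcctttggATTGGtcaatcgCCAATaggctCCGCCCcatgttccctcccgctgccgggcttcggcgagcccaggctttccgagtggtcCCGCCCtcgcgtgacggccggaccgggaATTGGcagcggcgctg
Kdsr: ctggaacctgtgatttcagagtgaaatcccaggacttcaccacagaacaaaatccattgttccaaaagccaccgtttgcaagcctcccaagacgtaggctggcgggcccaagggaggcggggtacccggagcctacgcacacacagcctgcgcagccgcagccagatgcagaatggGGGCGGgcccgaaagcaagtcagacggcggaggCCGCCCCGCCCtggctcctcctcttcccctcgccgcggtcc
Cers2: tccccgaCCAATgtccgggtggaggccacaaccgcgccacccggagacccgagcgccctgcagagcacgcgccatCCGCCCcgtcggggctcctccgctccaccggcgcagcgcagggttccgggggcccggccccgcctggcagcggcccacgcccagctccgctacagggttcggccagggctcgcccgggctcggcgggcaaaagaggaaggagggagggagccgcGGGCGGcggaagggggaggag

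Sptlc1 held 1 GC box and no CCAAT box, whereas Sptlc2 held 2 GC boxes and 5 CCAAT boxes. Kdsr held 3 GC boxes, of which the last 2 overlap, and Cers2 held 2 GC boxes and 1 CCAAT box. Among 33469 rat promoters of the same length, 30.5% held a GC box, 34.0% a CCAAT box, 5.59% the E-box palindrome and 0.693% the amino acid response element. The GC content was 63.2% for Sptlc1, 60.8% for Sptlc2, 63.6% for Kdsr and 77.2% for Cers2. The median over the same 33469 promoters, which were not limited to genes expressed here, was 51.2%. Cers5, Cers6, Degs1 and Sgpl1 were matched to RefSeq promoters as well, making 8 of the 9 genes analysed, and the E-box palindrome was found once, before Cers6. A match describes the letters in the window and is not a measured binding site.

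With PA, 3 of the 9 genes were higher than with BSA at an adjusted p-value under 0.05, and no member was called lower. The 3 were Sptlc1, Kdsr and Cers2, at 1.15-fold, 1.47-fold and 1.12-fold. Over all tested genes, 25.8% were called higher and 25.2% lower in this comparison, so that the 3 of 9 lie near the background. With C3G in the presence of PA, 2 of the 9 were called higher, Sptlc1 and Cers2, at 1.17-fold and 1.15-fold, beside 11.1% of all tested genes called higher and 10.2% called lower. PA + C3G versus BSA gave 3 of 9 higher, again Sptlc1, Kdsr and Cers2, beside 19.0% higher and 17.9% lower over all genes. The 6 members not called there had log2 fold changes between −0.05 (Sptlc2) and 0.38 (Cers6). Lower calls were 0 of 9 in each comparison of the main edgeR fit, also at an unadjusted p-value under 0.05, and 0 of 9 by DESeq2 and by limma on log2(FPKM + 1) at an adjusted p-value under 0.05. For PA + C3G versus PA, limma had 2 lower at an unadjusted p-value under 0.05, and edgeR with FPKM sums set equal across libraries had 1 lower after adjustment and 2 before it. In that comparison edgeR had 1 lower before adjustment with no filter, a limit of 5 FPKM, only the compared groups or counts divided by 4. With the replicate number as a block it had 1 lower after adjustment. The shares of all tested genes with the block, or at an unadjusted p-value alone, are not given here. The member counts of those kinds thus have no background beside them. The study's criterion for a differentially expressed gene asks for more than a 2-fold change together with p under 0.05 before adjustment, and 0 of the 9 met it in any comparison by edgeR, DESeq2 or limma. That criterion took 7.56% of all tested genes for PA versus BSA, 1.13% for PA + C3G versus PA and 4.63% for PA + C3G versus BSA. The median log2 fold change of the 9 genes was 0.10 for PA versus BSA and 0.12 for each of the other comparisons. Over all tested genes it was 0.00296 for PA versus BSA, −0.000727 for PA + C3G versus PA and 0.00673 for PA + C3G versus BSA. The difference between these medians was not tested.

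**Figure D1:**
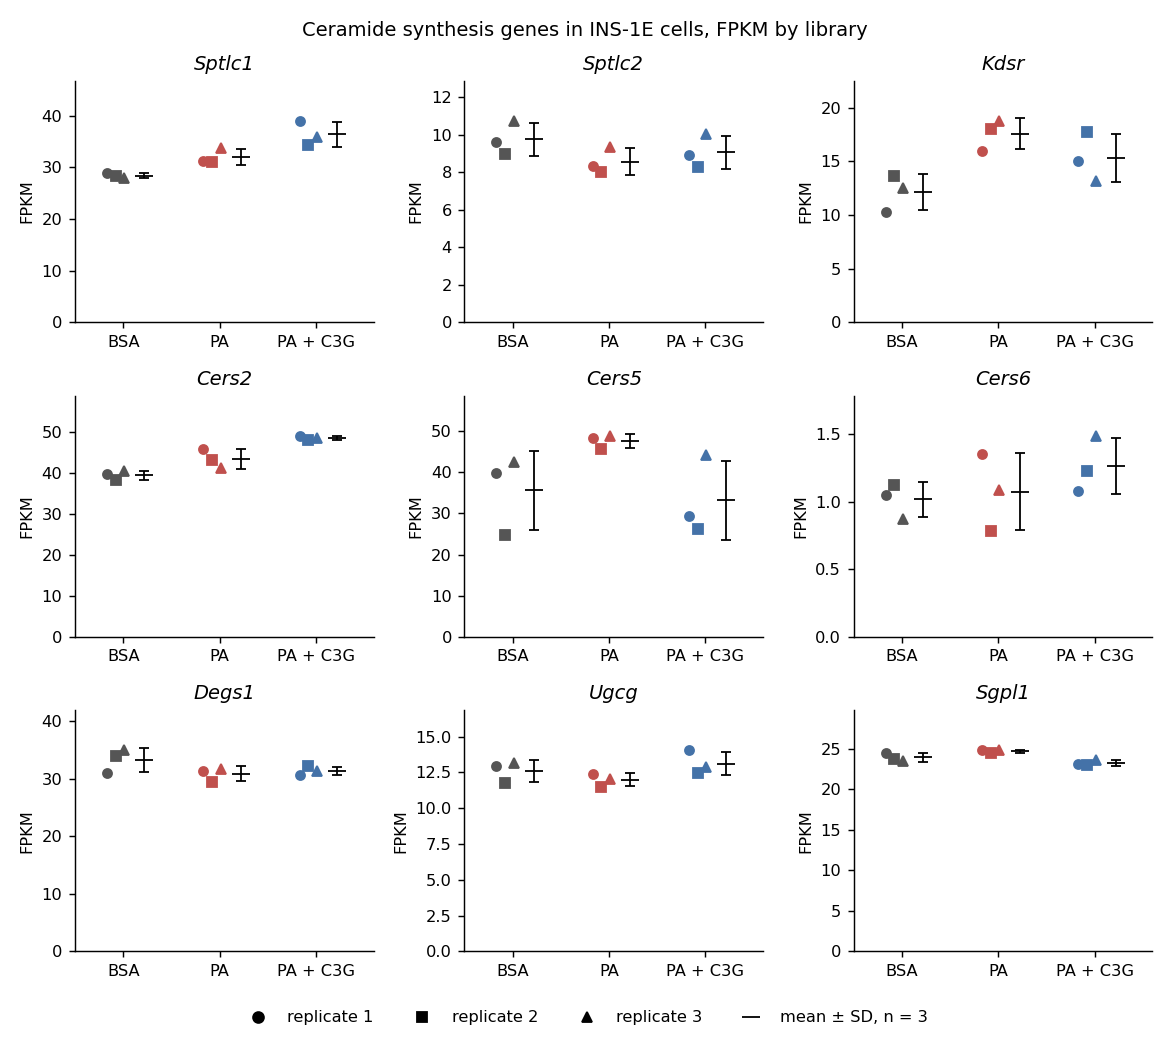
FPKM of each of the 9 ceramide synthesis genes (vertical axes, starting at 0 and scaled per gene) in the 3 libraries of each group, with the mean and SD beside them. Sptlc1 rises from 27.9 to 28.9 FPKM with BSA to 34.3 to 38.9 FPKM with PA + C3G, Kdsr is highest with PA, and the Cers5 libraries are close together with PA only.

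Serine palmitoyltransferase opens the pathway, and its large subunits Sptlc1 and Sptlc2 are described here in turn. Sptlc1 (ENSRNOG00000010882, chr17:11856525-11895566, plus strand, as the authors' table places it) was at 28.9, 28.3 and 27.9 FPKM in the BSA libraries, at 31.2, 31.0 and 33.8 FPKM in the PA libraries and at 38.9, 34.3 and 35.9 FPKM in the PA + C3G libraries. The groups do not overlap, and the order is BSA, PA, PA + C3G. The means were 28.4 ± 0.472 FPKM with BSA, 32.0 ± 1.55 FPKM with PA and 36.4 ± 2.36 FPKM with PA + C3G (SD, n = 3). The log2 fold change was 0.20 ± 0.05 (SE) for PA versus BSA, with an adjusted p of 0.0114 by edgeR's quasi-likelihood test. For PA + C3G versus PA it was 0.22 ± 0.05 with an adjusted p of 0.0169, and for PA + C3G versus BSA 0.42 ± 0.05 with an adjusted p of 0.000220. The call for C3G against PA was lost without PA replicate 1 (adjusted p = 0.0614) and without PA replicate 2 (adjusted p = 0.0588), in a range of 0.00249 to 0.0941 over the alternatives.

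Sptlc2 (ENSRNOG00000012210, chr6:111339136-111417954, minus strand), which carries the catalytic lysine, was lower in level than Sptlc1 in every library. Its levels were 9.58, 8.98 and 10.7 FPKM with BSA, 8.32, 7.99 and 9.36 FPKM with PA and 8.88, 8.25 and 10.02 FPKM with PA + C3G. All 3 groups overlap. The log2 fold change was −0.16 ± 0.10 for PA versus BSA (adjusted p = 0.215) and 0.12 ± 0.10 for PA + C3G versus PA (adjusted p = 0.470). The ratio of Sptlc1 to Sptlc2 FPKM was 2.93 ± 0.282 with BSA, 3.75 ± 0.133 with PA and 4.04 ± 0.415 with PA + C3G (SD, n = 3). The ratio lay between 2.61 and 3.15 in the BSA libraries, between 3.61 and 3.88 in the PA libraries and between 3.58 and 4.38 in the PA + C3G libraries, so that the control libraries lie apart and the PA libraries fall within the range of the PA + C3G group. The ratio is a description and was given no test.

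Kdsr, the ketosphinganine reductase, had the largest PA change among the members called. Kdsr (ENSRNOG00000002781, chr13:26780633-26812215, minus strand) was at 10.3, 13.6 and 12.5 FPKM with BSA, at 16.0, 18.0 and 18.8 FPKM with PA and at 15.0, 17.7 and 13.2 FPKM with PA + C3G. Every PA library lies above every BSA library, whereas the PA + C3G libraries overlap with both other groups. The means were 12.2 ± 1.69, 17.6 ± 1.42 and 15.3 ± 2.26 FPKM in the BSA, PA and PA + C3G groups (SD, n = 3). For PA versus BSA the log2 fold change was 0.56 ± 0.13 (adjusted p = 0.00520), and this call held under every alternative, with adjusted p-values of 1.67e-05 to 0.0207. PA + C3G versus PA gave −0.16 ± 0.13 (adjusted p = 0.421). PA + C3G versus BSA gave 0.40 ± 0.13 (adjusted p = 0.0372).

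The Kdsr call for PA + C3G versus BSA depends on single libraries. It was lost without BSA replicate 1 (adjusted p = 0.127), BSA replicate 3 (0.0775), PA + C3G replicate 1 (0.0723) or PA + C3G replicate 2 (0.136). It was also lost with limma, with TPM scaling and with only the compared groups in the fit, and the adjusted p ranged from 0.00441 to 0.136 over the alternatives.

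**Figure D2:**
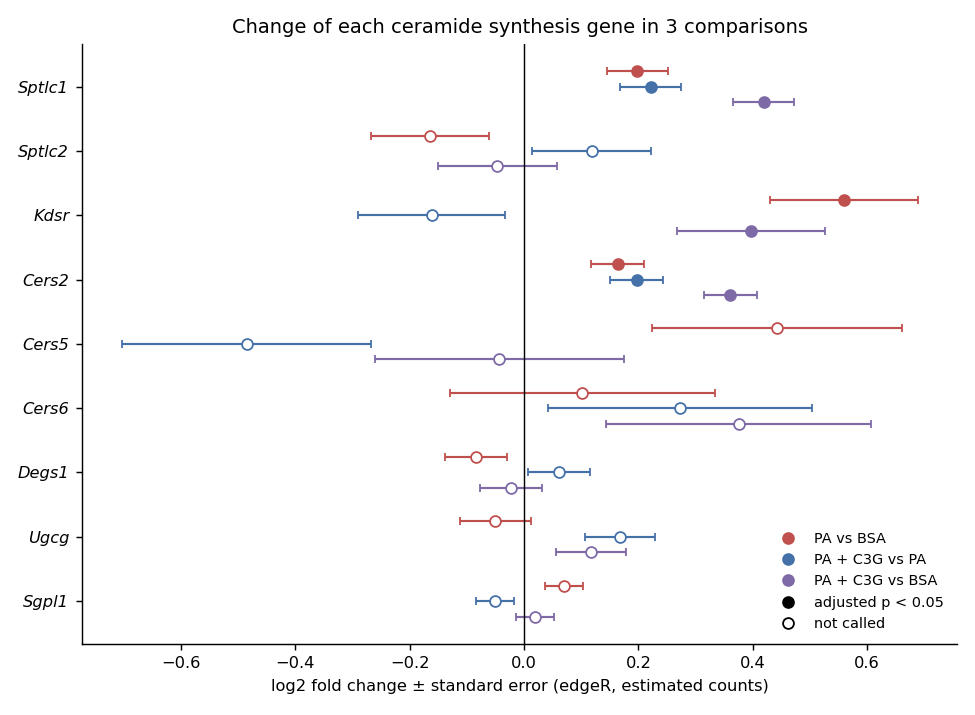
Log2 fold change ± SE (horizontal axis, edgeR on estimated counts of all 9 libraries) of each gene in the 3 comparisons, with filled points at an adjusted p-value under 0.05. Sptlc1 and Cers2 have filled points in all 3 comparisons and Kdsr in the 2 against BSA, and the open points of Cers5 and Cers6 carry the widest error bars.

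Among the ceramide synthases, Cers2 and Cers5 made up nearly all the measured transcript. Cers2 (ENSRNOG00000021138, chr2:196487656-196496986, plus strand) was at 39.6, 38.1 and 40.4 FPKM with BSA, at 45.8, 43.1 and 41.1 FPKM with PA and at 49.0, 47.9 and 48.4 FPKM with PA + C3G. The groups do not overlap, and the PA + C3G libraries are the highest, as for Sptlc1. The log2 fold change was 0.16 ± 0.05 for PA versus BSA (adjusted p = 0.0139), 0.20 ± 0.05 for PA + C3G versus PA (adjusted p = 0.0151) and 0.36 ± 0.05 for PA + C3G versus BSA (adjusted p = 0.000226). The call for PA versus BSA was lost without BSA replicate 2 (adjusted p = 0.0618) or PA replicate 1 (0.0651), in a range of 0.00613 to 0.0651 over the alternatives. The call for C3G against PA was lost without PA replicate 3 (adjusted p = 0.0552), in a range of 0.00289 to 0.126. Cers2 overlaps Setdb1 on the other strand over 1120 bases, and since the strand setting of the counting is not stated, reads of that stretch cannot be assigned with certainty.

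The C3G changes of Sptlc1 and Cers2 depend on how the libraries are scaled. When FPKM sums were set equal across libraries (TPM scaling), the log2 fold change for PA + C3G versus PA was 0.13 for Sptlc1 (adjusted p = 0.0941) and 0.11 for Cers2 (adjusted p = 0.126). Under that scaling the median log2 fold change of all tested genes in this comparison was −0.09, and the calls over all genes went from 1436 higher and 1316 lower to 775 higher and 2548 lower. For PA + C3G versus BSA it turned 2462 higher and 2321 lower into 1876 higher and 3066 lower, and Sptlc1 and Cers2 kept their calls there.

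Cers5 (ENSRNOG00000052990, chr7:141386391-141424343, minus strand) varied widely within the BSA and PA + C3G groups. It was at 39.8, 24.6 and 42.5 FPKM with BSA, at 48.4, 45.6 and 48.9 FPKM with PA and at 29.3, 26.2 and 44.2 FPKM with PA + C3G. The PA libraries lie above all the others, while BSA replicate 2 and PA + C3G replicates 1 and 2 are low. The means were 35.6 ± 9.62, 47.6 ± 1.74 and 33.2 ± 9.59 FPKM in the BSA, PA and PA + C3G groups (SD, n = 3). The log2 fold change was 0.44 ± 0.22 for PA versus BSA (adjusted p = 0.119) and −0.49 ± 0.22 for PA + C3G versus PA (adjusted p = 0.151), and neither passed the test. Without BSA replicate 2 the PA change was 0.23 (adjusted p = 0.348), in a range of 0.0275 to 0.348 over the alternatives, the lowest being a fit with the replicate number as a block. Without PA + C3G replicate 3 the C3G change was −0.74 (adjusted p = 0.0400), in a range of 0.0400 to 0.343 over the alternatives.

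Cers6 (ENSRNOG00000024595, chr3:55094637-55338445, plus strand) was the lowest member, with 108 to 185 estimated counts per library and a mean FPKM just above the limit for testing. It lay between 0.873 and 1.12 FPKM with BSA, between 0.783 and 1.35 FPKM with PA and between 1.08 and 1.49 FPKM with PA + C3G. These ranges overlap. Its log2 fold change was 0.10 ± 0.23 for PA versus BSA (adjusted p = 0.745) and 0.27 ± 0.23 for PA + C3G versus PA (adjusted p = 0.451).

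FPKM is scaled to gene length, so the synthases can be set against each other. As a share of the summed FPKM of Cers1, Cers2, Cers3, Cers5 and Cers6, Cers2 took 51.7% ± 6.22 with BSA, 46.6% ± 1.81 with PA and 58.1% ± 6.24 with PA + C3G (SD, n = 3). Cers5 took 45.7% ± 6.69, 51.3% ± 1.48 and 39.0% ± 6.56 in the same order. Cers2 held the larger share in every PA + C3G library, at 51.0% to 62.4%, and Cers5 in every PA library, at 50.3% to 53.0%. The BSA libraries lie on both sides, with Cers2 at 48.5%, 58.9% and 47.9%. The summed FPKM of the 5 synthases was 76.9 ± 10.6 with BSA, 92.9 ± 2.96 with PA and 84.0 ± 9.65 with PA + C3G. Cers1, which makes ceramides of stearoyl-CoA, had means of 0.837 to 0.990 FPKM over the groups and fell below the limit for testing, as did Cers3. The shares are descriptions with no test, and Cers4 is not in the sum.

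**Figure D3:**
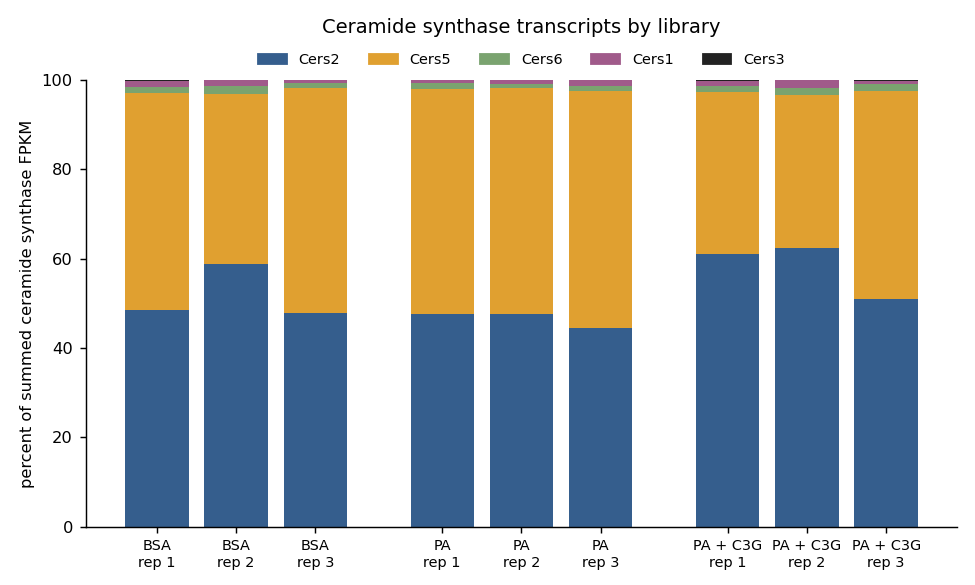
Share of each ceramide synthase in the summed ceramide synthase FPKM (vertical axis, percent) in each of the 9 libraries. Cers2 and Cers5 fill nearly the whole of each bar, with Cers2 at 44.6% to 47.7% with PA and at 51.0% to 62.4% with PA + C3G.

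Degs1 and Ugcg, which act after the acyl chain is attached, and Sgpl1, at the exit from the pathway, had small changes that did not pass the test. Degs1 (ENSRNOG00000003223, chr13:100666075-100672731, minus strand) was at 31.0, 33.9 and 34.9 FPKM with BSA, at 31.4, 29.4 and 31.7 FPKM with PA and at 30.7, 32.2 and 31.3 FPKM with PA + C3G. These groups overlap, with a log2 fold change of −0.08 ± 0.05 for PA versus BSA (adjusted p = 0.222) and 0.06 ± 0.05 for PA + C3G versus PA (adjusted p = 0.470).

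Ugcg (ENSRNOG00000015644, chr5:76386836-76419560, plus strand), the glucosylceramide synthase, was at 12.9, 11.7 and 13.2 FPKM with BSA, at 12.4, 11.5 and 12.0 FPKM with PA and at 14.0, 12.4 and 12.9 FPKM with PA + C3G. The PA + C3G libraries lie just above the highest PA library. The log2 fold change was −0.05 ± 0.06 for PA versus BSA (adjusted p = 0.531) and 0.17 ± 0.06 for PA + C3G versus PA (adjusted p = 0.0853), and neither passed the test. Ugcg overlaps Susd1 on the other strand over 2822 bases, so the limit given for Cers2 holds here too.

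Sgpl1 (ENSRNOG00000000565, chr20:30699872-30749940, minus strand), the sphingosine 1-phosphate lyase, varied least of the 9 relative to its mean. It lay between 23.5 and 24.5 FPKM with BSA, between 24.5 and 24.8 FPKM with PA and between 23.0 and 23.6 FPKM with PA + C3G. Its FPKM range with PA lies above that with PA + C3G, although the log2 fold change on normalized counts was only −0.05 ± 0.03 (adjusted p = 0.323). With TPM scaling this was −0.14 and passed the test (adjusted p = 0.0205), in a range of 0.0205 to 0.454 over the alternatives. For PA versus BSA the log2 fold change was 0.07 ± 0.03 (adjusted p = 0.110), and with TPM scaling 0.10 (adjusted p = 0.0469), in a range of 0.0469 to 0.351.

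The order of mean levels over all 9 libraries was Cers2 at 43.7 FPKM, Cers5 at 38.8, Sptlc1 at 32.2, Degs1 at 31.8, Sgpl1 at 23.9, Kdsr at 15.0, Ugcg at 12.6, Sptlc2 at 9.12 and Cers6 at 1.12. Cers2, Cers5, Sptlc1 and Degs1 each overlap with their neighbour in range over the 9 libraries, as do Kdsr and Ugcg. Sgpl1 (23.0 to 24.8 FPKM) stands clear of both neighbours, Degs1 being at 29.4 FPKM or more and Kdsr at 18.8 FPKM or less.

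Beside these, 70 further genes of sphingolipid metabolism were listed in 9 groups by function, of which 67 were in the table and 54 were tested. With PA, 21 of the 54 were called higher and 8 lower, which is 38.9% and 14.8%, beside 25.8% and 25.2% of all tested genes. Glycosphingolipid breakdown, which takes glycolipids apart, had 9 of its 11 genes higher. The other higher calls were 3 of 9 genes of sphingosine 1-phosphate metabolism, 3 of 5 of ceramide transfer and phosphorylation, 2 of 7 of sphingomyelin turnover, 2 of 4 ceramidases, 1 of 7 of glycosphingolipid synthesis and 1 of 6 partners and regulators of serine palmitoyltransferase. The list called sphingosine 1-phosphate metabolism also holds its receptors and an exporter, and a receptor is among its higher calls. The list called ceramidases also holds Naaa, a related lysosomal amidase, which is among its higher calls. The lower calls were 4 genes of sphingosine 1-phosphate metabolism, 2 of sphingomyelin turnover, 1 of transfer and 1 of glycosphingolipid synthesis. Without BSA replicate 3, the higher calls of sphingosine 1-phosphate metabolism went from 3 to 1, as they did at a limit of 5 FPKM. Without PA replicate 2, glycosphingolipid synthesis had 2 higher, and without BSA replicate 1, transfer had 2 lower. Log2 fold changes of the 5 tested genes of acyl-CoA supply lay between −0.11 and 0.16. Among them Elovl6, listed at 0 FPKM in PA replicate 2, had −0.07 ± 1.02 (SE), so its change is poorly measured. Without PA replicate 2, acyl-CoA supply had 1 higher.

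Hexa, a lysosomal glycosidase of the breakdown list, had, for PA versus BSA, a log2 fold change of 0.82 ± 0.03 (adjusted p = 5.76e-08). Neu1, a lysosomal sialidase, rose by 1.22 ± 0.08 (adjusted p = 1.80e-06). Smpd1, the acid sphingomyelinase that frees ceramide from sphingomyelin, rose by 0.60 ± 0.05, from 27.7 ± 0.462 FPKM with BSA to 41.4 ± 1.39 FPKM with PA (adjusted p = 4.06e-06). Asah1, the acid ceramidase, rose by 0.36 ± 0.07 (adjusted p = 0.00174), and the related lysosomal amidase Naaa by 0.68 ± 0.14 (adjusted p = 0.00311).

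The neutral sphingomyelinases Smpd3 and Smpd4 had log2 fold changes of −0.38 ± 0.05 and −0.32 ± 0.04 with PA (adjusted p = 0.000108 and 6.39e-05). Sphk2, a sphingosine kinase, fell by 0.36 on the log2 scale (adjusted p = 0.000450), and Aldh3a2, which oxidizes the aldehyde that Sgpl1 releases, by 0.48 (adjusted p = 4.24e-06). Cptp, the ceramide-1-phosphate transfer protein, rose by 0.64 ± 0.11 (adjusted p = 0.000864), whereas the glycolipid transfer protein Gltp fell by 0.38 (adjusted p = 0.00367). Of the lactosylceramide synthases, which take the product of Ugcg, B4galt6 rose by 0.42 ± 0.04 (adjusted p = 3.63e-05) and B4galt5 fell by 0.27 (adjusted p = 0.00171).

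**Figure D4:**
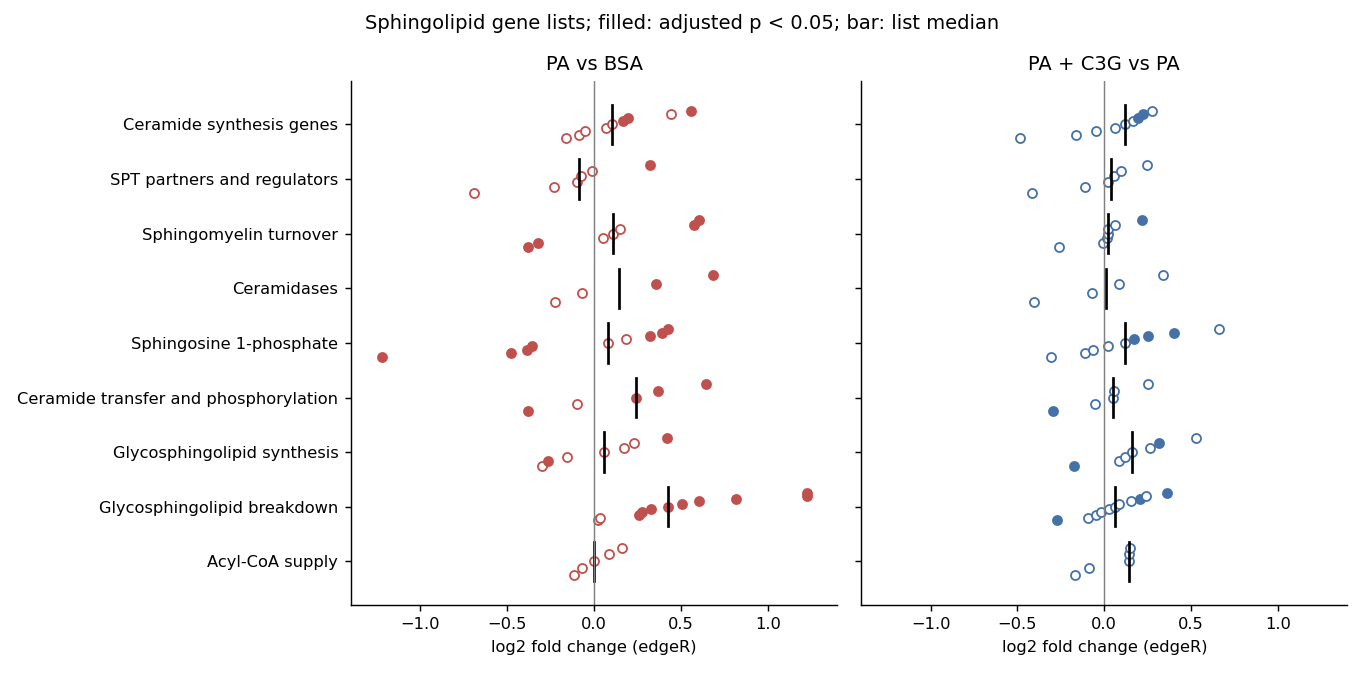
Log2 fold change (horizontal axes, edgeR) of each tested gene of the ceramide synthesis genes and of 8 further sphingolipid lists, for PA versus BSA on the left and PA + C3G versus PA on the right, with filled points at an adjusted p-value under 0.05 and a bar at each list's median. Glycosphingolipid breakdown has 9 of 11 points filled above zero with PA, and with C3G added 2 of the 11 are.

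With C3G added to PA, 7 of the 54 were called higher and 3 lower (13.0% and 5.56%), beside 11.1% and 10.2% of all tested genes. The higher calls were 3 genes of sphingosine 1-phosphate metabolism, 2 of glycosphingolipid breakdown, 1 of sphingomyelin turnover and 1 of glycosphingolipid synthesis, the last becoming 2 without BSA replicate 2 or PA + C3G replicate 2. B4galt5 had a log2 fold change of 0.31 ± 0.05 (adjusted p = 0.00273), Aldh3a2 of 0.25 ± 0.04 (adjusted p = 0.00186) and Plpp1, a lipid phosphate phosphatase, of 0.40 ± 0.09 (adjusted p = 0.0127).

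Some of these C3G calls were not stable. Psap, the precursor of the saposins, had a log2 fold change of 0.21 (adjusted p = 0.0117) and Smpd3 of 0.21 (adjusted p = 0.0116), and both calls were lost under TPM scaling, with adjusted p-values of up to 0.0984 and 0.0946 over the alternatives. Plekha8, a glucosylceramide transfer protein, had −0.29 (adjusted p = 0.0157) and lost the call without PA replicate 2, PA + C3G replicate 1 or PA + C3G replicate 3 (up to 0.0571). B4galt6 had −0.18 (adjusted p = 0.0208) and lost it without PA replicate 1, PA replicate 2 or PA + C3G replicate 1 (up to 0.0675). Spns2, the exporter of sphingosine 1-phosphate, had 0.17 (adjusted p = 0.0417) and lost it without any of 6 libraries (BSA replicate 3, PA replicates 1 and 3 and every PA + C3G replicate, up to 0.136).

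Against BSA, the PA + C3G group had 18 of the 54 higher and 8 lower (33.3% and 14.8%), beside 19.0% and 17.9% of all tested genes. Glycosphingolipid breakdown again gave 9 of the higher calls. The others were 3 of glycosphingolipid synthesis, 2 of sphingosine 1-phosphate metabolism and 1 each among the partners of serine palmitoyltransferase, sphingomyelin turnover, the ceramidases and transfer. The lower calls were 2 partners of serine palmitoyltransferase, 2 of sphingomyelin turnover, 2 of sphingosine 1-phosphate metabolism, 1 ceramidase and 1 gene of acyl-CoA supply.

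Many of these small counts depended on single libraries. The glycosphingolipid synthesis calls Gal3st1 (0.31, adjusted p = 0.0362) and St3gal5 (0.22, adjusted p = 0.0308) were each lost without any of 5 libraries, with adjusted p-values of up to 0.113 and 0.116, and the count was 1 without BSA replicate 1 or BSA replicate 2. Gal3st1 lost its call also without PA replicate 1 and PA + C3G replicates 2 and 3, and St3gal5 without BSA replicate 3 and PA + C3G replicates 1 and 3. Acer3, the lower ceramidase (−0.29, adjusted p = 0.0280), lost its call without BSA replicates 1 or 2 or PA + C3G replicates 1 or 3 (up to 0.0817). The fatty acid elongase Elovl5 (−0.28, adjusted p = 0.0277) lost it without BSA replicates 1 or 3 or PA + C3G replicates 1 or 2 (up to 0.0945). Sphingosine 1-phosphate metabolism had 1 higher gene without BSA replicate 1, BSA replicate 3, PA replicate 1, or PA + C3G replicate 1 or 3. Sphingomyelin turnover had 3 higher without BSA replicate 2 and 1 lower without PA + C3G replicate 1. The ceramidases had 2 higher without PA + C3G replicate 2, and transfer had 2 higher without BSA replicate 2 or PA + C3G replicate 1.

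The partners of serine palmitoyltransferase act on the enzyme that Sptlc1 and Sptlc2 form. Ormdl2, which like its paralogs holds the enzyme back, was at 28.4 ± 1.61 FPKM with BSA, 34.9 ± 1.87 FPKM with PA and 36.4 ± 1.06 FPKM with PA + C3G (SD, n = 3), a log2 fold change of 0.32 ± 0.06 for PA versus BSA (adjusted p = 0.00169) and of 0.42 ± 0.06 for PA + C3G versus BSA (adjusted p = 0.000542). Its paralog Ormdl3, the most abundant of the 3, was at 67.7 ± 4.05, 62.2 ± 9.17 and 72.0 ± 3.27 FPKM in the same order. Its log2 fold change was −0.10 ± 0.10 for PA versus BSA (adjusted p = 0.436) and 0.25 ± 0.10 for PA + C3G versus PA (adjusted p = 0.104). Ormdl3 passed the test in no comparison of the main edgeR fit. Without PA replicate 1, 1 partner of the enzyme was called higher in PA + C3G versus PA. The paralog Ormdl1 was at 2.37 ± 0.784, 1.44 ± 0.192 and 1.04 ± 0.166 FPKM in the same order. Ormdl1 was called lower in PA + C3G versus BSA, with −1.11 ± 0.30 (adjusted p = 0.0158), and lost the call without BSA replicate 3 or PA + C3G replicate 2 (up to 0.0621). Sptssa, a small activating subunit, had −0.34 ± 0.09 in the same comparison (adjusted p = 0.0164) and lost the call without BSA replicate 1 or PA + C3G replicate 3 (up to 0.0536). For PA versus BSA, Ormdl1 had −0.69 ± 0.29 (adjusted p = 0.0731) and Sptssa −0.23 ± 0.09 (adjusted p = 0.0611), and neither was called. In that comparison 1 partner was called lower by DESeq2, by limma, with the replicate number as a block or with only the compared groups. The same held without BSA replicate 1, PA replicate 1, or PA + C3G replicate 2 or 3.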

How the data were processed

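Polyadenylated RNA of INS-1E cells was sequenced from 3 libraries per group (BSA, PA, PA + C3G), as strand-marked read pairs. The submitters' processing notes name cutadapt 1.9, HISAT2 2.0.4, StringTie 1.3.4d, DESeq2 and edgeR without their roles. The genome build is not given in the sources used here, and gene positions were copied from the authors' table. The authors deposited estimated counts per gene, which are whole numbers and not normalized. The authors also deposited FPKM, scaled to gene length and library. Low counts pile up at multiples of 4 (2.44 times as many values at 4 as the mean at 3 and 5), for a reason not known, and counting error may be larger than the totals give.

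Counts were tested with edgeR 4.0.16 in R 4.3.3 (TMM, quasi-likelihood test, all 9 libraries, Benjamini-Hochberg adjustment over the 12958 genes averaging 1 FPKM or more, call at 0.05). FPKM values carry no TMM factor. The alternatives tried were median-ratio size factors, DESeq2 1.42.0, TPM scaling, a limit of 5 FPKM or none, fits to only the compared groups, the replicate number as a block, limma 3.58.1 on log2(FPKM + 1) or log2(FPKM + 0.1), counts divided by 4 and leaving out each library. The procedure was tested on simulated counts, with planted changes larger than those of the ceramide genes called here. The simulation held no pile-up of counts, and it gives no measure of how reliably changes this small are called. The genes, the 9 lists and the comparisons were chosen with earlier results of these data known. Named were all members and, per list and comparison, up to 3 called genes by p-value or, in a list without calls, its gene of highest mean FPKM. Some genes chosen in this way are not reported here. The labels call the libraries replicates without naming separate cultures, and the study's methods state biological triplicates for its experiments in general. The p-values measure the spread between these libraries. Precision rests on 3 libraries a group.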

Additional observations from a re-analysis of the deposited data

How the results depend on the processing

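Over the 9 ceramide genes and 3 comparisons, alternatives other than leaving out a library gave 267 values, of which 252 kept direction and side of the threshold, 6 lost a call, 5 gained one and 4 changed sign. Leaving out a library gave 243 values, of which 223 kept both, 9 lost a call, 1 gained one and 10 changed sign. For PA + C3G versus PA, TPM scaling left 0 ceramide genes higher and 1 lower (Sgpl1), and without a library the counts were 1 to 2 higher and 0 to 1 lower. The further sphingolipid genes in that comparison were 4 higher and 6 lower with TPM scaling and 11 higher with DESeq2, and without a library 1 to 4 were lower. For PA + C3G versus BSA, 5 to 8 of them were lower without a library. Every value that changed sign belonged to a change that was not called. With TPM scaling Degs1 was −0.0286 for PA + C3G versus PA and Sgpl1 −0.0424 for PA + C3G versus BSA, and limma gave −0.0406 (pseudocount 1) and −0.0421 (pseudocount 0.1) for the latter. Without a library, PA + C3G versus BSA ranged from −0.13 to 0.0167 for Sptlc2, from −0.31 to 0.0930 for Cers5, from −0.0827 to 0.00436 for Degs1 and from −0.00280 to 0.0262 for Sgpl1, and PA versus BSA from −0.10 to 0.28 for Cers6. The cause was not tested.

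Deviations of same-numbered libraries correlated at −0.0918 to 0.0796, and those of differently numbered libraries of different groups at −0.0722 to 0.0937. Between PA and PA + C3G, same-numbered libraries were at 0.0254 to 0.0796 and the others at −0.0722 to 0.0103. These values do not settle whether replicate numbers pair the samples. With the replicate block, 4 ceramide genes were higher in PA versus BSA, 3 higher and 1 lower in PA + C3G versus PA and 3 higher in PA + C3G versus BSA. The added calls were Cers5 in the first (0.48, adjusted p = 0.0275) and, in the second, Cers5 (−0.52, adjusted p = 0.0401) and Ugcg (0.17, adjusted p = 0.0317). The share of all tested genes called with the block is not given here. Whether the added calls are particular to the ceramide genes is therefore not known. Shares of the ceramide synthases from counts per kilobase were not run, because gene lengths were not used here.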

Other observations

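Elovl6, which elongates palmitoyl-CoA, was listed at 0 FPKM in PA replicate 2, while the other 2 PA libraries and the 6 libraries of the other groups lay between 2.20 and 3.63 FPKM. Elovl6 was singled out after its values were seen.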
